A study of Drosophila melanogaster with 3 samples.

Results

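The peaks described here were those of CG17359, a zinc finger protein of Drosophila melanogaster, whose summits fell inside the messenger-encoding exons of genes, away from any start of transcription. They were taken from the authors' list of 30000 peaks made from all replicates pooled. A peak was kept if its summit was more than 500 bp from every annotated transcription start site and lay in a coding exon (stop codon included) or, failing that, in a 3' UTR. This gave 1676 of 30000 peaks, 926 at coding summits and 750 at 3' UTR summits, of which 38 coding summits were also 3' UTR of another transcript. Peaks that the authors also kept in their thresholded list, named after the irreproducible discovery rate (IDR), were compared with peaks they did not keep. That list held 7287 peaks, which were the 7287 strongest pooled peaks by the authors' signal value.

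Chromatin came from whole embryos aged 0 to 14 h of 1 transgenic line that stably expressed CG17359 with GFP fused to its C terminus, and was sheared by sonication and precipitated with an anti-GFP antibody (chromatin immunoprecipitation sequencing). The 3 biological replicates formed 1 group, all were set against 1 shared control, and no untagged line or second condition was among the samples analysed here. Whole embryos of this age mix many tissues and stages, so a peak is an average over them. Each replicate list also held 30000 peaks, and the lists hold no read counts, so depth is unknown. Replicate 2 stood apart in that its commonest peak width was 330 bp, against 390 bp in the other lists, and it held more coding peaks than replicates 1 and 3.

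Zinc finger proteins of this kind bind DNA through arrays of fingers, and most regulatory sites of the fly genome lie in promoters, introns and intergenic sequence. Coding exons are constrained by the protein they encode and are richer in G and C than introns and 3' UTRs. A 3' UTR lies between the stop codon and the site where the messenger is cleaved, and is rich in A and T. CTCF is an insulator protein with its own zinc finger array, whose sites in flies share a GC-rich core.

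Sequences from under strong coding and 3' UTR peaks follow, 30 bases each and 5' to 3' (RefSeq genome, Release 6, equal to dm6). In the first group, capitals mark a core of the CTCF site, spelled AGNNGGCGC, found by searching both strands within 50 bp of the summit. The pattern was written after summit sequences had been seen, most IDR coding peaks lack it, and the otp and Cam cores are not shown.
Pde1c, coding, chr2L:11816557-11816586, minus strand: cggagccggcAGATGGCGCtgcggcctaag
HisRS, coding, chrX:18517601-18517630, plus strand: tgcaacgttccAGACGGCGCcctctggcgg
klar, coding, chr3L:506255-506284, plus strand: acccagacccaAGGTGGCGCtgctgtgcag
Ubr1, coding, chrX:16967620-16967649, plus strand: ctgcactcggcAGGGGGCGCcacaacgacg
Hr4, 3' UTR, chrX:2005999-2006028, minus strand: ctctaaatacAGGTGGCGCcactgaggaat
Hex-A, 3' UTR, chrX:9588123-9588152, plus strand: gggcatttgtgAGTTGGCGCgacttggctt
In the second group, from under 3 strong 3' UTR peaks without such a core, the capital is the summit base. Cals and APC7 were the strongest such peaks, while tey, at rank 1623, was not the next and stronger ones are not shown.
Cals, 3' UTR, chr4:1113303-1113332, minus strand: attgcagcagttttTgaaagggtattcaga
APC7, 3' UTR, chrX:6599479-6599508, plus strand: ctttatcatccattgTctaaaagtgaatgt
tey, 3' UTR, chr3L:19650793-19650822, minus strand: ccaccaaaaaaaaaAaaaaaaaaaaaaaaa
The tey summit sat in an unbroken run of A, while Cals and APC7 had mixed AT-rich sequence.

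Coding summits were rarest among strong peaks and stayed below their share of sequence among weak ones. They were 0.233% of the IDR list and 4.0% of the other pooled peaks, while coding exons were 13.9% of the sequence classified. In the share kept in the IDR list, 3' UTR summits lay between coding exons and every other class. Of the 926 coding peaks, 17 were in the IDR list, which is 1.84% (exact 95% interval 1.07% to 2.92%). Of the 750 3' UTR peaks, 75 were, which is 10% (7.95% to 12.4%). The share over all pooled peaks was 24.3%, with 34.2% of promoter, 22.1% of intron and 19.7% of intergenic summits. Both shares were below that background, and their intervals did not overlap. These intervals cover the counting of peaks only, since the pooled and IDR lists are 1 list each and have no replicate error.

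Set against the amount of sequence, 3' UTRs exceeded coding exons by a larger ratio among IDR peaks than among the others, though by fewer peaks per Mb. Coding sequence beyond 500 bp of start sites covered 18.6 Mb and held 0.912 IDR peaks per Mb, against 12.6 per Mb in 5.96 Mb of 3' UTR. Outside the IDR list the densities were 48.8 per Mb in coding exons and 113 per Mb in 3' UTRs. Introns held 56.0 IDR peaks per Mb and 197 per Mb outside the list, and intergenic sequence 29.7 and 121. At the weaker level 3' UTRs were thus close to intergenic sequence, and at the stronger level they were below it.

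**Figure D1:**
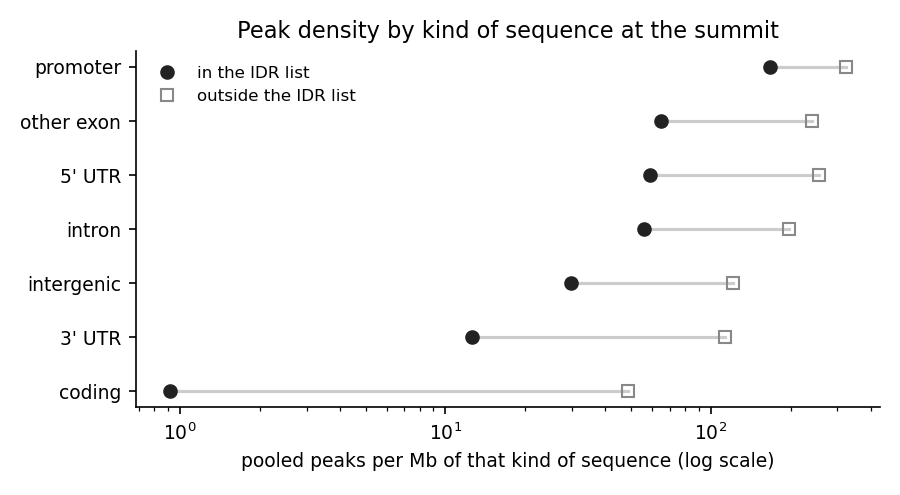
Pooled peaks per Mb of each kind of sequence (log axis), with filled points for peaks in the IDR list and open squares for the rest. Coding exons have the lowest density in both, at 0.912 and 48.8 per Mb, and 3' UTRs the next lowest, at 12.6 and 113 per Mb.

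The same ordering was found in each replicate when its own summits were classified and its own 7287 strongest peaks taken. Of coding peaks, 14 of 962 were among the strongest in replicate 1, 15 of 1492 in replicate 2 and 16 of 1085 in replicate 3, or 1.31% ± 0.266 (SD, n = 3). Of 3' UTR peaks, 69 of 898, 73 of 777 and 75 of 768 were, or 8.95% ± 1.11 (SD, n = 3). The 3' UTR share was higher in 3 of 3 replicates, by 6.23, 8.39 and 8.29 percentage points, a mean of 7.64 ± 1.22 (SD, n = 3), and 7.26 without replicate 2. An exact two-sided sign-flip permutation test gave p = 0.25, the smallest that 3 replicates allow.

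Counted the other way, coding summits made up 0.206% of the strongest peaks and 5.13% of the rest, as means of 3 replicates. For 3' UTR summits these shares were 0.993% and 3.27%. Through the ranks, in bins of 3000 peaks, the coding share went from 0.222% ± 0.0385 to 9.34% ± 1.68 (SD, n = 3) and the 3' UTR share from 0.778% ± 0.0694 to 4.37% ± 0.371. The mean 3' UTR share exceeded the mean coding share in the first 4 bins (in replicate 2 the fourth went the other way, 1.57% against 1.7%), and the coding share exceeded it from rank 18001 on. In the 2 bins between, at 2.56% ± 0.645 against 2.66% ± 0.340 and at 4.06% ± 0.650 against 3.6% ± 0.841 (coding against 3' UTR), they differed by less than the SD.

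**Figure D2:**
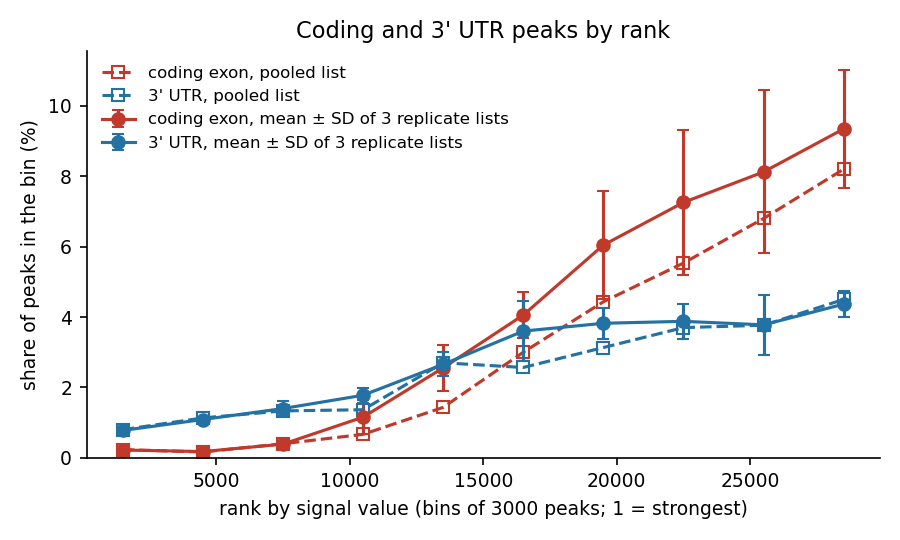
Share of peaks with a coding (red) or 3' UTR (blue) summit in bins of 3000 peaks by rank of the authors' signal value. Filled points are means ± SD of 3 replicate lists and open squares the pooled list. The coding share climbs from 0.222% to 9.34% and the 3' UTR share from 0.778% to 4.37%.

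Coding peaks were less often found again in each replicate, but they were also weaker. Their median pooled rank was 23843.5, against 20543.5 for 3' UTR peaks. The shares below were not compared at equal rank, so they are not a trait separate from peak strength. A peak of all 3 replicate lists overlapped 178 of 926 coding peaks, or 19.2% (exact 95% interval 16.7% to 21.9%), and 312 of 750 3' UTR peaks, or 41.6% (38.0% to 45.2%). The background over all pooled peaks was 59.5%. With replicate 2 left out, so that fewer lists had to match, the shares were 30.7% and 53.9%. Among peaks of the IDR list the shares were alike, 16 of 17 coding (94.1%) and 70 of 75 3' UTR (93.3%). Over all IDR peaks the share was 97.8%. Outside it they were 17.8% of coding and 35.9% of 3' UTR peaks, against 48.8% of the other pooled peaks. There, 70 coding (7.70%) and 32 3' UTR peaks (4.74%) overlapped no replicate peak at all, against 2.80% of all pooled peaks outside the list. The pooled list was made from the same reads as the replicate lists, so a match is partly built in, and replicate lists stop at 30000 peaks.

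Where a replicate peak matched, its summit stayed in a 3' UTR more often than in a coding exon. Of IDR 3' UTR peaks matched in every replicate, all 3 replicate summits lay in a 3' UTR at 67 of 70. Of IDR coding peaks all 3 lay in coding sequence at 11 of 16. Outside the IDR list the counts were 179 of 242 and 72 of 162.

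The 17 IDR coding peaks were led by otp, which encodes the homeodomain transcription factor Orthopedia of the nervous system. Its peak on arm 2R had a pooled signal value of 2246 (rank 184) and values of 679, 823 and 773 in the 3 replicates, given here and throughout in the order 1, 2, 3. Signal values are the authors' own and each list has its own scale, so replicates were compared by rank. The otp peak ranked 142, 118 and 308, in every replicate the highest rank of any of the 17. Its summit was 134 bp inside the exon.

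Next came Pde1c, a phosphodiesterase gene, with its peak at chr2L:11816368-11816755, a pooled signal value of 1468 and ranks of 585, 309 and 509. HisRS, the histidyl-tRNA synthetase gene, had its peak at chrX:18517377-18517745, a pooled value of 1294 and ranks of 783, 437 and 590. The HisRS summit was coding in the pooled list and in replicates 2 and 3 but 5' UTR in replicate 1, and intron of another transcript. These 3 peaks were the coding peaks among the strongest 1000 pooled peaks, and the pooled order otp, Pde1c, HisRS was the order in each replicate.

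Below them the pooled value fell to 841 at CG10357 and 686 at l(3)mbn, whose summits were 9 and 13 bp from non-coding sequence. klar encodes Klarsicht, which links nuclei and lipid droplets to microtubule motors. Its peak at chr3L:506093-506370 had a value of 503 and ranks of 2564, 1968 and 3670. CG4822 followed at 472, and Socs36E, a suppressor of JAK/STAT signalling, at 390. The replicate 3 summit of the Socs36E peak lay in an intron.

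The remaining 9 coding peaks were the weakest of the 17. Their pooled signal values ran from 216 at scrib, which encodes the cell polarity protein Scribble, to 314 at CG31259. CG31259 had no matching peak in replicate 3. Tim17b1, of the mitochondrial import machinery, ranked 6858, 3039 and 6077. The others were Plod, a collagen lysyl hydroxylase gene, bun, a TSC22-family transcription factor gene, CG12054, btsz, Ubr1, a ubiquitin ligase gene of the N-degron pathway, and su(w[a]), a splicing regulator gene. scrib ranked 12408, 4507 and 10570. In 1 or 2 replicates, 7 of the 17 lay beyond the strongest 7287: Plod, btsz, su(w[a]) and scrib in 2 and bun, CG12054 and Ubr1 in 1. The Ubr1 summit was 1 bp inside coding sequence, and its replicate summits were called intron, 5' UTR and 5' UTR.

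The strongest 3' UTR peak lay in Cals, the calsyntenin gene, at chr4:1113146-1113498. Its signal value was 1475 in the pooled list and 419, 423 and 621 in the replicates, at ranks 413, 471 and 471. The summit was 1 bp from an annotated transcript end, and it was the only 3' UTR peak on chromosome 4 in the pooled list. APC7, for a subunit of the anaphase-promoting complex, had its peak at chrX:6599305-6599645, a value of 1425 and ranks of 614, 327 and 564. Then came stas at 1143, scf at 1005 and CG7872 at 967. In each replicate all 15 of the strongest 3' UTR peaks had a matching peak with its summit in a 3' UTR.

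The other 10 of these 15 ranged from 929 at by, the tensin gene, down to 638 at CG5895. NetB, which encodes the axon guidance cue Netrin-B, had a value of 815 and ranks of 1373, 1175 and 1357, with its summit 1677 bp from the nearest annotated transcript end. tey, whose summit lay in the run of A shown above, had a value of 705 and ranks of 2148, 1444 and 1719. Each 50-base word within 100 bp of the tey summit occurred once on the 6 chromosome arms searched. Hr4, for a nuclear receptor of the ecdysone response, had a value of 693 and ranks of 1753, 1696 and 1723. REG, for a proteasome activator, ranked 1857, 1886 and 1959. CG5984, CG33307, CG8206 and MESK2 had values between 663 and 849.

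**Figure D3:**
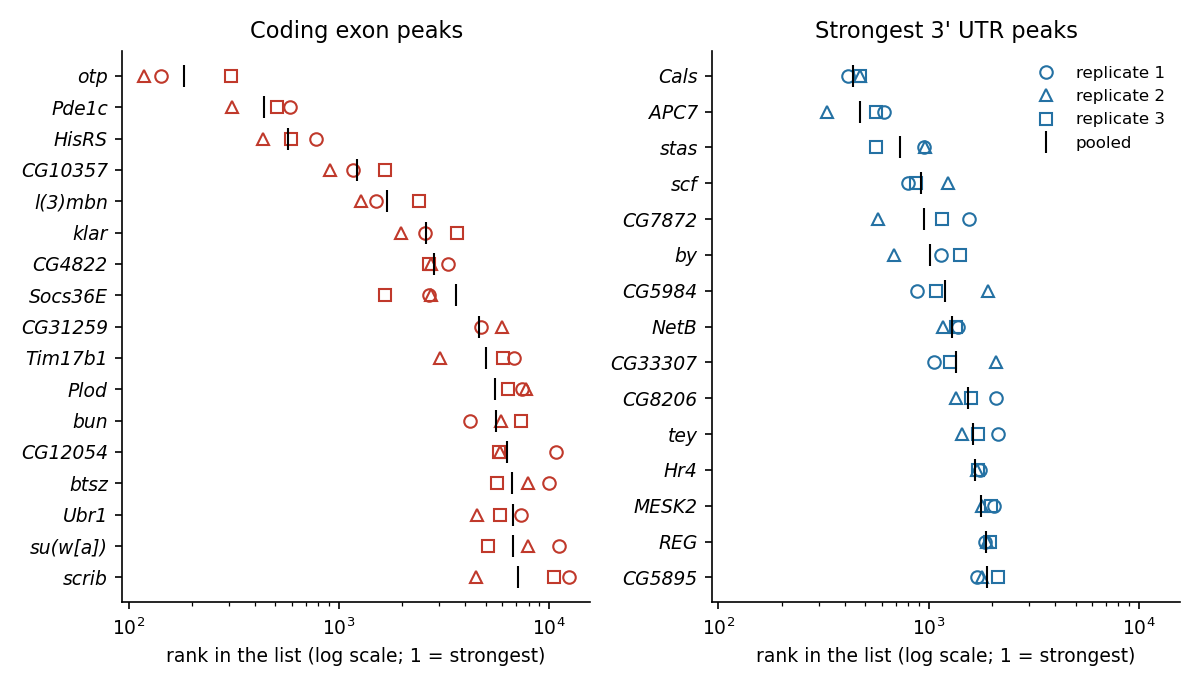
Rank of each IDR coding peak (left) and of the 15 strongest 3' UTR peaks (right) in each replicate list (open symbols) and in the pooled list (vertical tick), on log axes where 1 is strongest. otp ranks 118 to 308 in the replicates, while scrib at the bottom ranks 4507 to 12408.

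The ELAV-family genes elav and fne, which encode RNA-binding proteins of neurons, are given here as a family named after its values were seen, and Rbp9 of the same family had no coding or 3' UTR peak. Over all genes, 76 of 11241 with eligible 3' UTR hosted a 3' UTR peak of the IDR list, and those of elav and fne are long, at 7856 and 4927 bp beyond the start site limit. elav had a 3' UTR peak with a signal value of 308 and replicate ranks of 4768, 4268 and 6088, and a weaker one outside the list at 138. fne had 1 at 284, which ranked 11386 and 4706 in replicates 1 and 3 and had no match in replicate 2. Cam, the calmodulin gene, had a value of 484 and ranks of 2496, 2427 and 3910. Within CG17359 itself no coding or 3' UTR peak was found, and the summit of the nearest pooled peak lay 743 bp outside the gene.

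Just outside the IDR list the strongest coding peaks were those of Sgs3, CG33978, PNUTS, GstO3 and CG43938, at signal values of 200 down to 173. In Sgs3, a salivary glue protein gene with an internal repeat, 32.9% of the 50-base words within 100 bp of the summit were unique on the 6 arms. The strongest 3' UTR peaks outside the list were those of CG12605, CG15546, a summit shared by CG12535 and Myc, fok and CG5877, at 200 to 206. At the start site limit, the members nearest to it were CG11726 at 503 bp and Polr3G and CG9344 at 505 bp, with values of 69.8, 89.7 and 73.7. Summits just inside the limit were PCID2 at 500 bp and CG9921 and puc at 499 bp, with values of 63.7, 81.4 and 78.4. All 6 were weak peaks outside the IDR list.

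IDR coding summits sat near the edges of coding sequence. The median distance to the nearest non-coding base was 47 bp for the 17 IDR peaks, 96 bp for the 909 others and 170 bp for all coding bases beyond the start site limit. Within 50 bp of an edge lay 9 of 17, or 52.9%, against 28.6% of the others and 20.7% of coding bases. The 9 were Pde1c, HisRS, CG10357, l(3)mbn, Plod, bun, CG12054, Ubr1 and su(w[a]). In the replicates' own lists the medians were 45, 48 and 54.5 bp for the strongest coding peaks and 112, 129 and 105 bp for the rest. The strongest were thus nearer in 3 of 3. Since the pooled list was made from the same reads, this is not separate support.

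The median IDR coding peak had 51.2% of its bases in coding sequence, against 82.6% outside the list. Wholly in coding sequence lay 2 of 17, CG4822 and btsz. The CG4822 and btsz peaks also lay wholly in intron of another transcript, and the CG4822 summit was 3' UTR of another as well. For 6 of 17 the summit was also intron of another transcript, or 35.3%, against 13.0% outside. The median IDR 3' UTR peak lay wholly in 3' UTR, as did 58 of 75 such peaks in all. Its summit was a median of 157 bp from an annotated transcript end, against 279 bp outside the IDR list and 272 bp for all 3' UTR bases. All 909 coding peaks outside the list were 390 bp wide, so their limits come from the authors' peak caller and not from a measured extent. In the IDR list 10 of 17 coding and 30 of 75 3' UTR peaks had that width.

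**Figure D4:**
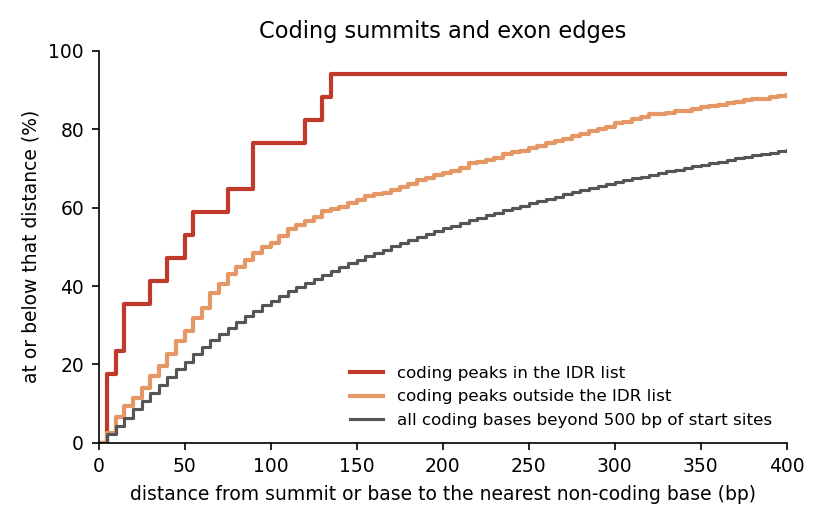
Cumulative percent of coding summits, or of coding bases, at or below a distance in bp from the nearest non-coding base. The median is 47 bp for coding peaks in the IDR list, 96 bp for those outside it and 170 bp for all coding bases more than 500 bp from start sites.

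Sequence under coding and 3' UTR summits followed the class of sequence they lay in. GC content over 100 bp either side was 52.5% at coding summits, with replicate means of 52.2% ± 0.764 (SD, n = 3), and all such coding sequence had 53.4%. At 3' UTR summits it was 37.4%, with replicate means of 37.4% ± 1.14 (SD, n = 3), and 3' UTR sequence had 35.3%. Windows around summits could run beyond the class, while the sequence values count only bases inside it, so these are unlike measures. In 3' UTRs, IDR peaks averaged 35.6% and the others 37.6%. In coding exons the means were 49.4% (SD over the 17 peaks 9.04) and 52.6%, but the median was 53.2% in both. In introns that gap was 34.8% against 39.6%. Among IDR coding summits the values ran from 29.4% at Plod to 61.2% at Pde1c.

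The CTCF core was found within 50 bp of 5 of the 17 IDR coding summits, those of otp, Pde1c, HisRS, klar and Ubr1. That is 29.4% (exact 95% interval 10.3% to 56.0%), against 18 of 909 other coding peaks, or 1.98%, and 1.94% of all coding windows of the same length. Over all pooled peaks the share was 1.19%. The pattern was written after summit sequences had been seen, so its share at IDR coding peaks is a description and not a test. At the 3 strongest coding peaks the core was present in 3 of 3. Among the strongest 1000 pooled peaks, 9 of 992 non-member peaks and 0 of 5 3' UTR peaks had one. Coding peaks had it at 1 of 4 from rank 1001 to 3000 and at 1 of 10 from rank 3001 to 7287. Its centre lay at the summit in Pde1c, 29 bp away in HisRS, 37 bp away in Ubr1 and 40 bp away in both otp and klar. Within 25 bp only 1 of 17 therefore had it, so the count rests on the window. It rests on the letters too, since AGNTGGCGC was at 3 of 17 and 0.66% of the other coding peaks, and TGGCGC at 6 of 17 and 8.80%.

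The pooled list was made from the reads of the replicates, so the replicate counts are not separate support. Among the strongest coding peaks of the replicates the core was found at 3 of 14, 5 of 15 and 4 of 16. Of the rest, 2.11%, 2.17% and 2.53% had it. In 3' UTRs it was found at 3 of 75 IDR peaks, Hr4, Cam and Hex-A, or 4.0% (exact 95% interval 0.833% to 11.2%), and at 4 of 675 others, or 0.593%. Of all 3' UTR windows 0.451% held it. In Hr4 and Cam the core was 5 and 6 bp from the summit and in Hex-A 46 bp. Hex-A encodes a hexokinase. Among IDR peaks of other classes the core was at 1.67% of promoter, 1.01% of intron and 2.78% of intergenic summits. A match of letters shows only that the letters are there, and whether CTCF binds at these places was not tested.

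**Figure D5:**
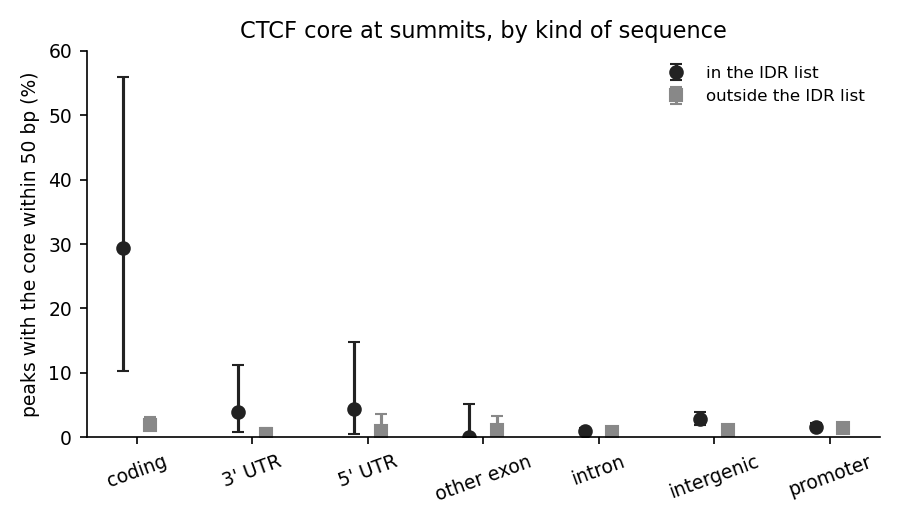
Percent of pooled peaks with a CTCF core within 50 bp of the summit, by kind of sequence, for peaks in the IDR list (black) and outside it (grey); bars are exact 95% intervals for the counting of peaks. Coding peaks in the IDR list stand at 29.4% (10.3% to 56.0%) and 3' UTR peaks in it at 4.0% (0.833% to 11.2%).

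Of 11 other elements searched, none was at a share of IDR peaks more than 3 times that of all windows of its class. This is no even comparison with the CTCF core, whose pattern was written after summit sequences had been seen. Some elements are rare, such as TATCGATA at 0.0836% of coding and 0.263% of 3' UTR windows. For these, finding none in 17 and 75 IDR peaks says little. The BEAF-32 element CGATA was at 0 of 17 IDR coding summits, for which the exact interval reaches 19.5%, at 11.8% of other coding peaks and 12.1% of coding windows. In 3' UTRs it was at 9 of 75 IDR peaks and 13.1% of windows. The E box CACCTG was at 3 of 17 IDR coding peaks and 8.17% of coding windows, and at 5.33% of IDR 3' UTR peaks (exact 95% interval 1.47% to 13.1%) and 1.91% of 3' UTR windows. A run of 6 A, AAAAAA, was at 33.3% of IDR 3' UTR peaks (22.9% to 45.2%) and 22.7% of 3' UTR windows. The cleavage signal AATAAA on the sense strand was at 21.3% (12.7% to 32.3%) and 17.3%. A core of the Su(Hw) insulator site was at no IDR coding or 3' UTR peak, and at 0.444% of other 3' UTR peaks against 0.499% of windows.

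The 3' UTR peaks leaned to the X chromosome, as did intron, 5' UTR and promoter peaks, while coding and intergenic peaks did not. The X held 245 of 750 3' UTR peaks, or 32.7% (exact 95% interval 29.3% to 36.2%), and 23.4% of 3' UTR sequence. In the replicates' own lists the X share of 3' UTR peaks was 29.3%, 28.6% and 28.3%, or 28.7% ± 0.529 (SD, n = 3), above the sequence share in each and below the pooled value in each. In the IDR list it was 27 of 75, or 36.0% (25.2% to 47.9%). The X held 16.6% of coding peaks and 17.9% of coding sequence, and 23.8% of intron peaks and 19.3% of intron sequence. Embryo sex was not recorded, and the part of X copy number in these shares was not tested.

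The coding peaks lay in 814 genes and the 3' UTR peaks in 587, with 106 genes in both. A single coding peak was found in 724 of the 814, and a single 3' UTR peak in 472 of the 587. Host genes of 3' UTR peaks had long 3' UTRs beyond the start site limit, with a median of 1049 bp against 256 bp for all genes with such sequence. For coding hosts the medians were 1310 bp and 1008 bp of coding sequence. Since a longer stretch offers more room for a summit, no preference for a gene was read from its count.

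The genes with most peaks were corto and Pdp1, with 9 each. corto encodes a chromatin protein, and 8 of its peaks were in 3' UTR, 2 of them in the IDR list at signal values of 245 and 235. One of the corto peaks outside the list overlapped the second of these and matched the same replicate peaks, and overlapping entries of this kind are not independent. In all, 216 of the 1676 peaks overlapped another of them. Pdp1, a bZIP transcription factor gene, had 4 coding and 5 3' UTR peaks, with the strongest at 118. ps, which encodes the splicing factor Pasilla, had 8, all in 3' UTR and 1 in the IDR list.

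Next were fs(1)h, a bromodomain protein gene, with 7 3' UTR peaks, and chinmo, a zinc finger gene of neuronal timing, with 2 coding and 5 3' UTR peaks. raskol, a Ras GTPase-activating protein gene, had 5 coding and 1 3' UTR peak. Myc had 2 and 4, the nuclear receptor gene ftz-f1 had 5 and 1, and chrb, an inhibitor of TOR signalling, had 6 in 3' UTR. bun, with 2 coding and 3 3' UTR peaks, was 1 of 11 genes with 5 and is named for its higher signal value. These genes have 3' UTRs of 755 to 8974 bp beyond the start site limit. In all 78 genes had 3 peaks or more.

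Among gene groups, 6.56% of protein-coding genes with eligible sequence hosted a coding peak and 5.22% a 3' UTR peak. Cytoplasmic ribosomal protein genes hosted coding peaks in 6 of 56 and 3' UTR peaks in 7 of 66. Of these only the 3' UTR peak of RpS26 was in the IDR list, at a signal value of 248 and ranks of 5153, 6372 and 7201. Mitochondrial ribosomal protein genes hosted 3 of 62 and 1 of 56, and chemoreceptor genes 9 of 179 and 1 of 49. No cuticle protein gene of the Cpr family hosted either, of 61 and 63 with such sequence. Histone genes hosted 1 and 1, His2Av and His3.3B, both of them variant genes outside the repeated cluster. Of 8 Hox genes, Ubx hosted a 3' UTR peak with a signal value of 68.6. Of 12 chromatin and insulator factor genes, mod(mdg4) and su(Hw) hosted coding peaks outside the IDR list. These shares are descriptions without a test, and genes differ in length.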

How the data were processed

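The study deposited 5 peak lists, 1 per replicate, 1 pooled and 1 thresholded, on dm6 per the labels. Per the text records deposited beside them, replicate peaks came from each replicate's own alignments with 1 shared control. Aligner, peak caller and IDR threshold: not given in the sources used here. Each peak's signal value and its −log10 q-value are the authors' own as deposited. The signal ranked peaks within a list, and the q-value was not used. Summits were classified with Ensembl release 115 gene models, transposable elements left out as genes, after testing on simulated data (Python 3.11.15, numpy 2.4.6, pandas 2.3.3, scipy 1.17.1). A match was an overlap of at least 1 bp. Intervals are exact Clopper-Pearson at 95%. The 3 replicates were compared by an exact sign-flip permutation test. Peaks are not replicates and were not tested against each other.

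The members, gene groups and elements were chosen with earlier results of these data known. Named are hosts of all IDR coding peaks, the 15 strongest IDR 3' UTR peaks, the 5 strongest of each class outside the list, 10 genes with most peaks (ties by signal value), the 3 nearest either side of the start site limit and CG17359. elav, fne, Cam, Hex-A and the group members were added for their family or element after their values were seen. Alternatives covered the start site distance, class priority, thresholds, overlap rule, windows and each replicate left out. A ZAD gene group named in the plan was not counted.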

Additional observations from a re-analysis of the deposited data

How the results depend on the processing

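Of 51 alternatives, 29 values moved by less than their error and 22 by more. A reversed direction could be scored only for the replicate difference between 3' UTR and coding peaks, which kept its sign throughout. The other results are single shares or means, for which no reversal was possible. Moves follow largely from construction where the threshold itself changed. With the stronger 50% of the IDR list 0.864% of coding and 4.0% of 3' UTR peaks were kept, and with the strongest 15000 pooled peaks 9.40% and 29.3%. Their replicate difference was then 3.17 and 17.1 percentage points, and 7.26 to 8.34 with a replicate left out. Matches in all replicate lists were 11.2% of coding and 29.6% of 3' UTR peaks when the pooled summit had to lie inside the replicate peak, and 11.02% and 26.8% when at least 50% of both peaks had to overlap. With a replicate left out they were 29.7% to 33.7% and 51.1% to 53.9%, since fewer lists had to match. GC content at coding summits was 53.9% in 100 bp and 50.8% in 400 bp windows. Added after seeing the data, a 25 bp window left the CTCF core at 5.88% of IDR coding peaks and AGNTGGCGC was at 17.6%, and the X share of 3' UTR peaks was 29.3%, 28.6% and 28.3% in the replicates' own lists; the cause was not tested. Without stop codons as coding, 16 coding peaks were in the IDR list. Within each replicate the classes were paired by the sign-flip test, and no block between groups applies to 1 group. The unknown depth and the cap of 30000 peaks limit what weak peaks show.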
